A study of Mus musculus with 8 samples.

Results

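The nuclear genes of the mitochondrial respiratory chain were followed across 4 groups of mouse T helper cells measured on a whole-transcript Affymetrix array. Members were the genes whose platform symbol begins with Nduf, Uqcr, Cox4, Cox5, Cox6, Cox7, Cox8 or Atp5, or is Sdha, Sdhb, Sdhc or Sdhd. The rule used names and no measured change, took probe sets that carry a single gene symbol, and kept the probe set with the highest mean for each gene. It found 89 members among the 19938 genes of the array, from 114 probe sets. By complex they were 43 genes of complex I, 4 of complex II, 8 of complex III, 17 of complex IV and 17 of complex V. By role they were 74 subunits, 7 complex I assembly factors (Ndufaf1 to Ndufaf7) and 8 isoforms known mainly from restricted tissues or conditions (Ndufa4l2, Cox4i2, Cox6a2, Cox6b2, Cox7a1, Cox7b2, Cox8b and Cox8c).

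Tet2 encodes a dioxygenase that acts on methylated cytosine bases in DNA, and the series compared T helper subsets with and without it. Wild-type Th1 and wild-type Th17 cells came from Tet2(f/f) mice, so the controls carry the floxed allele without Cre. Tet2-deficient Th1 and Tet2-deficient Th17 cells came from CD2(Cre)Tet2(f/f) mice, in which Cre is under CD2 control. CD2 is expressed by lymphocytes at large, so the deletion is not limited to T helper cells. Each group had 2 arrays, called biological replicates in the titles, and whether these came from separate mice is not given in the sources used here. Mouse age, culture conditions and time of harvest are not given there either. The p-values therefore measure the spread between these arrays, and the small number of arrays limits the precision of every value.

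The respiratory chain sits in the inner mitochondrial membrane. Complex I takes electrons from NADH and complex II from succinate. Both pass them through coenzyme Q to complex III, and from there through cytochrome c to complex IV, which reduces oxygen. Complexes I, III and IV pump protons, and complex V (ATP synthase) lets them flow back to make ATP. Most subunits are encoded in the nucleus, a few are encoded by mitochondrial DNA, and assembly factors join them without staying in the finished complex. Activated T cells raise both glycolysis and respiration, and NRF1, the ETS family factor GABP and YY1 are known regulators of nuclear respiratory genes.

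The promoters of the members were searched for exact matches, on either strand, to GCGCA followed by any base and GCGC (NRF1), CCGGAAG (ETS family) and AAGATGG (YY1), in 250 bases before to 50 bases after each RefSeq start in GRCm38.p6. The table held 78 promoters of 73 of the 89 members. The NRF1 letters stood in 24.4% of the members' promoters and in 4.60% of all 32851 promoters of the same length. The ETS letters stood in 23.1% and 8.86%, and the YY1 letters in 12.8% and 6.34%. At least 1 of the motifs stood in the promoters of 40 of 73 members (54.8%, against 20.0% of all genes with such promoters). By complex these were 19 of 38 in complex I, 3 of 3 in complex II, 3 of 5 in complex III, 3 of 12 in complex IV and 12 of 15 in complex V. No member promoter had matches of different motifs that overlapped. These shares describe letters and give no binding. The promoters set beside those of the members were not matched for base composition or expression.

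The 130 bases before the start are shown first for the 3 members that were higher in wild-type Th17 than in wild-type Th1 cells. They were Ndufa6 (chr15:82354292-82354421, minus strand), Ndufaf3 (chr9:108567437-108567566, minus strand) and Ndufaf4 (chr4:24897953-24898082, plus strand), all from RefSeq on GRCm38.p6, written from 5′ to 3′ with motif matches in capitals.
Ndufa6: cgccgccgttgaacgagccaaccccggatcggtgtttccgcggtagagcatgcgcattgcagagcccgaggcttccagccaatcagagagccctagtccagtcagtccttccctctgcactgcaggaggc
Ndufaf3: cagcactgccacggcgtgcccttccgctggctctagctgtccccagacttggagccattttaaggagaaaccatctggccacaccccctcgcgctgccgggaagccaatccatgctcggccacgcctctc
Ndufaf4: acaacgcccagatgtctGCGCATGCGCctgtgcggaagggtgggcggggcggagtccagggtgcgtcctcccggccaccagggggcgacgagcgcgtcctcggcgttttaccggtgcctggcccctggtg
The genes that shared a direction did not share these letters in the bases shown. Ndufaf4 had an NRF1 match at 113 to 104 bases before its start, Ndufa6 had one at bases 24 to 33 after its start, outside the window, and Ndufaf3 had no match in its promoter. Uqcrq was not among the promoters used.

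For each of the other complexes, the promoter with the most matches in the same window is shown, to let the motifs be seen in place. They were Sdha (chr13:74350241-74350370, minus strand), Uqcr11 (chr10:80406822-80406951, minus strand), Cox6a1 (chr5:115348959-115349088, minus strand) and Atp5j (chr16:84834977-84835106, minus strand).
Sdha: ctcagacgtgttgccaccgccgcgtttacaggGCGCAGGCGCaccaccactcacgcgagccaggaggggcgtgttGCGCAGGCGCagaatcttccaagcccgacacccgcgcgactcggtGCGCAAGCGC
Uqcr11: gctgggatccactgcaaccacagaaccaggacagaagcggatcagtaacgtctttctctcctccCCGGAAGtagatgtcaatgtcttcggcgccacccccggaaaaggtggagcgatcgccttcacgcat
Cox6a1: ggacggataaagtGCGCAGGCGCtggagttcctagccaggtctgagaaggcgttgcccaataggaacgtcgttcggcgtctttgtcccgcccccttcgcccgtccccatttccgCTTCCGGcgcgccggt
Atp5j: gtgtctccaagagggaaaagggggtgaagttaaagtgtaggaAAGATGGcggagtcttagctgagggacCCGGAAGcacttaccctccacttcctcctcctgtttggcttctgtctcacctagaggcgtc
Sdha held 3 NRF1 matches, Uqcr11 held an ETS match, Cox6a1 an NRF1 and an ETS match, and Atp5j a YY1 and an ETS match. None of these 4 genes passed the test in any comparison.

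The arrays were alike in overall signal, with array medians of 6.53 to 6.61 on the log2 scale and correlations across genes of 0.990 to 0.994 within groups. The subset labels were borne out by most of their markers: Ifng was at 10.2 to 11.8 on the Th1 arrays and 5.92 to 6.03 on the Th17 arrays, and Il17a at 5.90 to 6.18 and 8.87 to 9.84. Tbx21 and Il12rb2 were higher on every Th1 array, and Il17f, Il23r and Ccr6 on every Th17 array. The Th1 marker Cxcr3 overlapped, with Th17 minus Th1 differences of -0.18 in each genotype (limma adjusted p = 0.48 and 0.47). The T cell genes Cd3d, Cd3e, Cd3g and Cd4 were between 8.66 and 11.8 on every array. All 5 macrophage markers lay under the array median on all 8 arrays. Of the B cell markers, Ms4a1 and Cd79a did so too, while Cd79b lay under it on 3 of 8 arrays. The CD8 T cell marker Cd8a lay under it on all 8 arrays and Cd8b1 on 6. Of the natural killer markers, Ncr1 and Klrb1c lay under it on all arrays, while Klrd1 was at 6.30 and 6.51 on the wild-type Th17 arrays and at 7.25 and 8.07 on the Tet2-deficient ones. Tet2 itself was at 8.14 and 8.02 on the wild-type Th1 arrays, 8.12 and 7.98 on the Tet2-deficient Th1 arrays, 8.51 and 8.49 on the wild-type Th17 arrays, and 8.34 and 8.39 on the Tet2-deficient Th17 arrays. Which exon the floxed allele loses, and where the probes lie, are not given in the sources used here, so this signal does not check the genotype labels. The Th17 arrays held unequal amounts of RNA from female cells. The female-specific transcript Xist was at 4.80 to 5.07 on the Th1 arrays, at 5.15 and 10.1 on the wild-type Th17 arrays and at 8.60 and 11.3 on the Tet2-deficient Th17 arrays. Its part in the results was not tested beyond a fit with the share of female RNA as a covariate, whose values are given beside the 4 members that passed and as counts for the related genes.

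Between subsets, few respiratory chain genes changed. In wild-type cells 3 members rose in Th17 against Th1 cells (limma, adjusted p under 0.05) and 0 fell, which is 3.37% of the members against 8.40% of all genes. By direction the background was 4.97% of all genes higher and 3.44% lower. In Tet2-deficient cells 0 members rose and 1 fell, or 1.12% of the members against 10.1% of all genes (6.32% higher and 3.79% lower). At an unadjusted p under 0.05 the members numbered 11 in wild-type cells (12.4%, against 24.5% of all genes) and 8 in Tet2-deficient cells (8.99%, against 24.8%). RNA was taken from whole populations, so fewer cells of a type and less RNA per cell cannot be told apart. The signals are relative to the other genes of an array, so the total RNA or mitochondrial content of a cell was not measured.

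The sizes of change were small as well. The members' median log2 difference, Th17 minus Th1, was 0.0069 in wild-type cells, where the median of all genes was -0.03, and 0.07 in Tet2-deficient cells, again beside -0.03. Quantile normalization applied again turned both member medians below 0, to -0.05 and -0.02. The extremes were -0.39 and 0.73 in the wild type and -0.44 and 0.50 in the Tet2-deficient cells. In each genotype, the 95% interval of 73 of the 89 members (82.0%) lay wholly within a 1.5-fold change, against 76.9% of all genes in wild-type and 76.2% in Tet2-deficient cells. Past 1.5-fold stood 1 member, Ndufa6 in wild-type cells (1.12% of the members, against 4.97% of all genes), and 0 members in Tet2-deficient cells (5.97% of all genes).

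**Figure D1:**
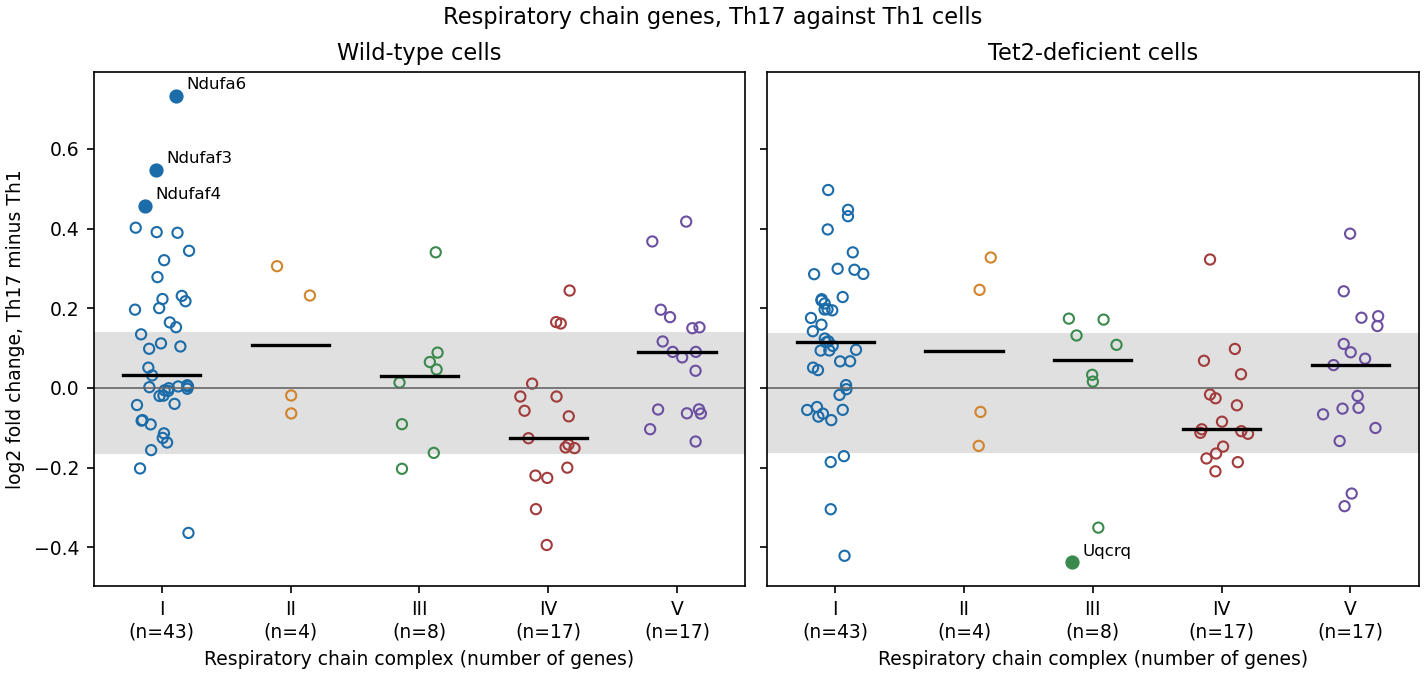
Log2 difference between Th17 and Th1 cells (vertical axis) for each of the 89 respiratory chain genes by complex (horizontal axis), in wild-type cells on the left and Tet2-deficient cells on the right. Filled and named points passed the test (adjusted p under 0.05, limma), short bars are medians of a complex, and the grey band holds the middle 50% of all genes tested. Complexes follow symbol prefixes, so Ndufa4 stands with complex I, and complex IV has its median below 0 in both panels (-0.13 and -0.10).

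Complex I, with 43 of the 89 members, held all 3 that rose in wild-type Th17 cells (4.97% of all genes rose). Ndufa6 is an accessory subunit that holds the mitochondrial acyl carrier protein Ndufab1 in complex I. Its log2 signal was 8.25 and 7.68 on the wild-type Th1 arrays, 8.19 and 8.65 on the Tet2-deficient Th1 arrays, 8.59 and 8.80 on the wild-type Th17 arrays, and 9.05 and 8.64 on the Tet2-deficient Th17 arrays. The wild-type groups did not overlap, and wild-type Th1 replicate 2 was the lowest array. The difference in wild-type cells was 0.73 ± 0.21 (SE; 1.66-fold; 95% interval 0.29 to 1.18; limma adjusted p = 0.047). In Tet2-deficient cells it was 0.43 ± 0.21 and did not pass (limma adjusted p = 0.22). The wild-type call was lost without wild-type Th1 replicate 2 (0.45), wild-type Th17 replicate 1 (0.84), wild-type Th17 replicate 2 (0.63) or once the female share entered as a covariate (0.80), and also with the replicate number as a block (limma adjusted p = 0.058) and after quantile normalization again (0.59; limma adjusted p = 0.13). It held under 11 of 17 alternatives, with limma adjusted p from 0.022 to 0.25.

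Ndufaf3 and Ndufaf4 are partner assembly factors that act early in building complex I. Ndufaf3 was at 7.38 and 7.31 on the wild-type Th1 arrays, 7.66 and 7.60 on the Tet2-deficient Th1 arrays, 7.94 and 7.84 on the wild-type Th17 arrays, and 8.06 and 7.79 on the Tet2-deficient Th17 arrays. All 4 Th17 arrays lay above all 4 Th1 arrays. The difference was 0.55 ± 0.12 in wild-type cells (1.46-fold; limma adjusted p = 0.017) and 0.30 ± 0.12 in Tet2-deficient cells (limma adjusted p = 0.15). The wild-type call held under 14 of 17 alternatives (limma adjusted p from 0.010 to 0.088), the female-share covariate among them (0.61). It was lost without wild-type Th1 replicate 2 (0.51) or either wild-type Th17 array (0.50 without replicate 1, 0.60 without replicate 2).

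Ndufaf4 was at 7.56 and 7.74 on the wild-type Th1 arrays, 7.77 and 7.84 on the Tet2-deficient Th1 arrays, 8.27 and 7.96 on the wild-type Th17 arrays, and 7.82 and 7.88 on the Tet2-deficient Th17 arrays. Both wild-type Th17 arrays stood above the other 6, whose groups lay close together. The difference was 0.46 ± 0.13 in wild-type cells (1.37-fold; limma adjusted p = 0.049) and 0.04 ± 0.13 in Tet2-deficient cells (95% interval -0.24 to 0.33). The difference between these genotypes was itself -0.41 ± 0.18 (unadjusted p = 0.044; limma adjusted p = 0.999), which did not pass. The wild-type call was the least firm of the 3: it held under 6 of 17 alternatives (limma adjusted p from 0.033 to 0.26). It was lost with the female-share covariate (0.48), with the replicate number as a block (limma adjusted p = 0.074), with only the 4 wild-type arrays (limma adjusted p = 0.11), after quantile normalization again (0.33; limma adjusted p = 0.19) and without any array other than wild-type Th17 replicate 2. Without wild-type Th17 replicate 1 the difference was 0.30, and without wild-type Th1 replicate 1 it was 0.37.

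All 7 complex I assembly factors had a Th17 minus Th1 difference above 0 in both genotypes. Some lay close to 0: the smallest were 0.0020 for Ndufaf7 in wild-type and 0.04 for Ndufaf4 in Tet2-deficient cells. Of all 19938 genes, 8956 lay above 0 in wild-type and 8838 in Tet2-deficient cells. The medians of the 7 factors were 0.15 in the wild type and 0.22 in the Tet2-deficient cells. Of these factors 2 passed in wild-type and 0 in Tet2-deficient cells, beside 4.97% and 6.32% of all genes called higher. Quantile normalization applied again left 6 of 7 above 0 in Tet2-deficient cells. The 35 other subunits of complex I had medians of 0.0038 and 0.11, and over the whole complex 26 of 43 genes lay above 0 in the wild type and 31 of 43 in the Tet2-deficient cells. Genes above the median signal of the array, where 79 of the 89 members lie, had medians of 0.09 and 0.07 in the same comparisons, while genes at or below it had medians of -0.10 and -0.09. The assembly factors were spread over both: Ndufaf5 and Ndufaf6 lay under the array median on all 8 arrays. Ndufaf2 and Ndufaf7 had mean signals of 6.62 and 6.54, near the array medians of 6.53 to 6.61.

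Other complex I genes had similar sizes of change without passing. Ndufs1, the largest core subunit, which carries iron-sulphur clusters, was at 8.20 and 8.63 on the wild-type Th1 arrays, 8.33 and 8.36 on the Tet2-deficient Th1 arrays, 8.84 and 8.77 on the wild-type Th17 arrays, and 8.78 and 8.80 on the Tet2-deficient Th17 arrays. All 4 Th17 arrays were above all 4 Th1 arrays, by 0.39 ± 0.14 in wild-type (limma adjusted p = 0.11) and 0.45 ± 0.14 in Tet2-deficient cells (limma adjusted p = 0.066). The wild-type difference of Ndufs1 was 0.17 without wild-type Th1 replicate 1 and passed, at 0.61, without wild-type Th1 replicate 2 (limma adjusted p = 0.021). Its Tet2-deficient difference passed under 5 of 17 alternatives. Ndufb6, a membrane-arm accessory subunit, differed by 0.10 ± 0.16 and 0.50 ± 0.16 (limma adjusted p = 0.75 and 0.064), and the second passed under 5 of 17 alternatives. Ndufb8, another membrane-arm subunit, was lower by -0.36 ± 0.15 and -0.42 ± 0.15 (limma adjusted p = 0.16 and 0.105), and the second passed under 2 of 17 alternatives. Ndufa4, which carries a complex I name and is now placed in complex IV, differed by 0.39 ± 0.14 and 0.14 ± 0.14 (limma adjusted p = 0.11 and 0.59). Its wild-type difference was 0.20 without wild-type Th1 replicate 1 and passed, at 0.59, without wild-type Th1 replicate 2 (limma adjusted p = 0.034). Ndufv1, the subunit that binds NADH, differed by 0.16 ± 0.12 and 0.21 ± 0.12.

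**Figure D2:**
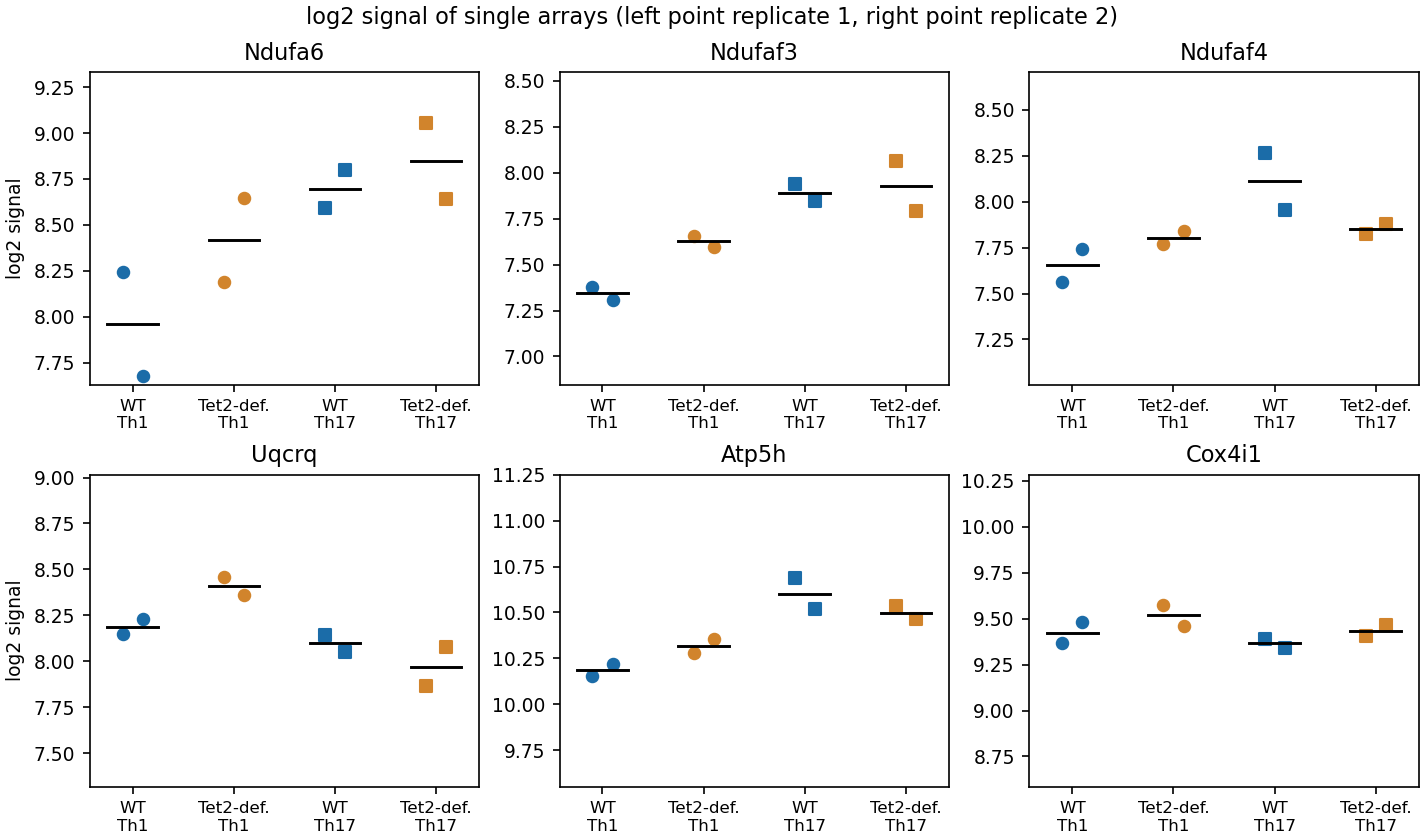
Log2 signal (vertical axis) on each of the 8 arrays for the 4 members that passed a subset comparison (Ndufa6, Ndufaf3, Ndufaf4, Uqcrq), for Atp5h, which came closest without passing in wild-type cells, and for the complex IV subunit Cox4i1. Points are arrays (circles Th1, squares Th17), bars are group means and all panels span the same height; the Th17 arrays of Ndufaf3 all lie above its Th1 arrays, and those of Cox4i1 do not.

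Complex II, succinate dehydrogenase, belongs to both the respiratory chain and the citric acid cycle. None of its 4 genes passed (8.40% and 10.1% of all genes did). Sdha, the flavoprotein, was at 9.37 and 9.71 on the wild-type Th1 arrays, 9.62 and 9.49 on the Tet2-deficient Th1 arrays, 10.03 and 9.67 on the wild-type Th17 arrays, and 9.76 and 9.998 on the Tet2-deficient Th17 arrays, so the wild-type groups overlapped. Its differences were 0.31 ± 0.16 and 0.33 ± 0.16 (limma adjusted p = 0.26 and 0.23). The wild-type value was 0.14 and 0.48 without wild-type Th1 replicate 1 and 2, and 0.13 and 0.48 without wild-type Th17 replicate 1 and 2. Sdhb, the iron-sulphur subunit, differed by 0.23 ± 0.11 and 0.25 ± 0.11 (limma adjusted p = 0.23 and 0.20), with no overlap of arrays in either genotype. The membrane anchors Sdhc and Sdhd differed by -0.02 ± 0.13 and -0.06 ± 0.15 in the wild type and -0.06 ± 0.13 and -0.15 ± 0.15 in the Tet2-deficient cells.

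In complex III the member that passed was Uqcrq, a small subunit bound near cytochrome b. Its signal was 8.15 and 8.23 on the wild-type Th1 arrays, 8.46 and 8.36 on the Tet2-deficient Th1 arrays, 8.14 and 8.05 on the wild-type Th17 arrays, and 7.86 and 8.08 on the Tet2-deficient Th17 arrays. The Tet2-deficient groups stood apart, with Tet2-deficient Th17 replicate 1 the lowest array. The Tet2-deficient difference was -0.44 ± 0.12 (1.36-fold lower; limma adjusted p = 0.038) and the wild-type difference -0.09 ± 0.12 (limma adjusted p = 0.69). The difference between the 2 genotypes, -0.35 ± 0.17, did not pass (unadjusted p = 0.064; limma adjusted p = 0.999). The call held under 10 of 17 alternatives (limma adjusted p from 0.012 to 0.30). It was lost with the female-share covariate (-0.53), with the replicate number as a block (limma adjusted p = 0.064), with each array centred on its median gene (-0.39) and without any of the 4 Tet2-deficient arrays. Without Tet2-deficient Th17 replicate 1, which held a smaller share of female RNA than replicate 2, it was -0.33, and without replicate 2 it was -0.54. Without Tet2-deficient Th1 replicate 1 it was -0.39, and without replicate 2 it was -0.49.

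The other 7 genes of complex III did not pass in either genotype (8.40% and 10.1% of all genes did). The core protein Uqcrc2 was at 10.89 and 10.73 on the wild-type Th1 arrays, 10.93 and 10.96 on the Tet2-deficient Th1 arrays, 11.09 and 11.21 on the wild-type Th17 arrays, and 11.18 and 11.06 on the Tet2-deficient Th17 arrays. Every Th17 array was above every Th1 array, by 0.34 ± 0.12 in wild-type (limma adjusted p = 0.11) and 0.17 ± 0.12 in Tet2-deficient cells (limma adjusted p = 0.43). Uqcrc1, the other core protein, differed by 0.07 ± 0.15 and 0.02 ± 0.15. Uqcrfs1, the Rieske iron-sulphur protein that hands electrons towards cytochrome c, differed by -0.20 ± 0.12 and 0.03 ± 0.12. Uqcr10 differed by -0.16 ± 0.17 and -0.35 ± 0.17.

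None of the 17 genes of complex IV, cytochrome c oxidase, passed in either genotype (8.40% and 10.1% of all genes did). In each genotype 13 of the 17 lay below 0, as did 10982 (wild-type) and 11100 (Tet2-deficient) of all 19938 genes. The medians of the 17 were -0.13 and -0.10 and stayed below 0 under both other scalings. Of the 17 genes, 7 are restricted isoforms. Together with Ndufa4l2, 8 of 8 restricted isoforms lay below 0 in the wild type and 7 of 8 in the Tet2-deficient cells (medians -0.15 and -0.11). After quantile normalization again these were 6 of 8 and 5 of 8. Genes at or below the median signal had medians of -0.10 and -0.09, and genes above it 0.09 and 0.07. The restricted isoforms Cox4i2, Cox6a2 and Cox8c had mean signals of 6.81, 7.86 and 6.78, above every array median. Their wild-type differences were -0.14, -0.22 and -0.23. For the 10 ubiquitous subunits of complex IV the medians were -0.04 and -0.06, with 6 and 7 of 10 below 0. They were -0.16 and -0.15 after quantile normalization again, and -0.0042 and -0.02 with centred arrays, where 5 of 10 lay below 0 in each genotype. Ndufa4, grouped with complex I by its symbol, is not among the 17 or the 10, and it differed by 0.39 and 0.14. Of all 89 members, 7 lay under the array median on all 8 arrays, among them Cox7a1, Cox7b2, Cox8b and Ndufa4l2.

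Among the ubiquitous subunits of complex IV, Cox4i1, a regulatory subunit that binds ATP, was at 9.37 and 9.48 on the wild-type Th1 arrays, 9.57 and 9.46 on the Tet2-deficient Th1 arrays, 9.39 and 9.34 on the wild-type Th17 arrays, and 9.40 and 9.46 on the Tet2-deficient Th17 arrays. The subsets overlapped in wild-type cells, and the differences were -0.06 ± 0.12 and -0.08 ± 0.12, with 95% intervals of -0.31 to 0.20 and -0.34 to 0.17. Its paralog Cox4i2, known from lung and from low oxygen, differed by -0.14 ± 0.11 and -0.19 ± 0.11. Cox6a1 was at 9.18 and 9.14 on the wild-type Th1 arrays, 9.25 and 9.20 on the Tet2-deficient Th1 arrays, 8.40 and 9.13 on the wild-type Th17 arrays, and 9.16 and 9.004 on the Tet2-deficient Th17 arrays. Wild-type Th17 replicate 1 stood apart from the other 7 arrays, and the wild-type difference of -0.39 ± 0.19 did not pass (limma adjusted p = 0.22). With wild-type Th17 replicate 2 left out, so that the low array stood alone, it was -0.76 (limma adjusted p = 0.017), and with replicate 1 left out it was -0.03. Cox5a and Cox5b, matrix-side subunits, differed by -0.07 ± 0.12 and 0.24 ± 0.13 in the wild type and by -0.02 ± 0.12 and -0.04 ± 0.13 in the Tet2-deficient cells. Cox7a2l, which links complexes III and IV, differed by 0.01 ± 0.13 and 0.10 ± 0.13.

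In complex V the closest gene was Atp5h, subunit d of the peripheral stalk that holds the catalytic head in place. Atp5h was at 10.15 and 10.22 on the wild-type Th1 arrays, 10.28 and 10.36 on the Tet2-deficient Th1 arrays, 10.69 and 10.52 on the wild-type Th17 arrays, and 10.53 and 10.46 on the Tet2-deficient Th17 arrays. Every Th17 array was above every Th1 array. The wild-type difference was 0.42 ± 0.12 (1.34-fold; limma adjusted p = 0.053) and the Tet2-deficient one 0.18 ± 0.12 (limma adjusted p = 0.40). Its other 2 probe sets gave 0.44 and 0.37 in wild-type cells. The wild-type difference of Atp5h passed under 3 of 17 alternatives. Atp5pb, another stalk subunit, differed by 0.18 ± 0.16 and 0.39 ± 0.16 (limma adjusted p = 0.54 and 0.16). The other probe set of Atp5pb gave 0.04 and 0.13.

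Neither catalytic head subunit of ATP synthase passed. Atp5a1 and Atp5b, its alpha and beta subunits, differed by 0.15 ± 0.15 and 0.09 ± 0.12 in the wild type and by 0.16 ± 0.15 and -0.02 ± 0.12 in the Tet2-deficient cells. Atp5b ran from 12.30 to 12.58 over the 8 arrays. Atp5g1, Atp5g2 and Atp5g3 encode the same mature subunit c of the rotor ring. They differed by -0.06 ± 0.14, -0.13 ± 0.13 and -0.05 ± 0.14 in the wild type and by -0.30 ± 0.14, -0.10 ± 0.13 and 0.06 ± 0.14 in the Tet2-deficient cells. The medians of complex V, 0.09 and 0.06, turned below 0 with quantile normalization applied again, as did those of complexes II and III.

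**Figure D3:**
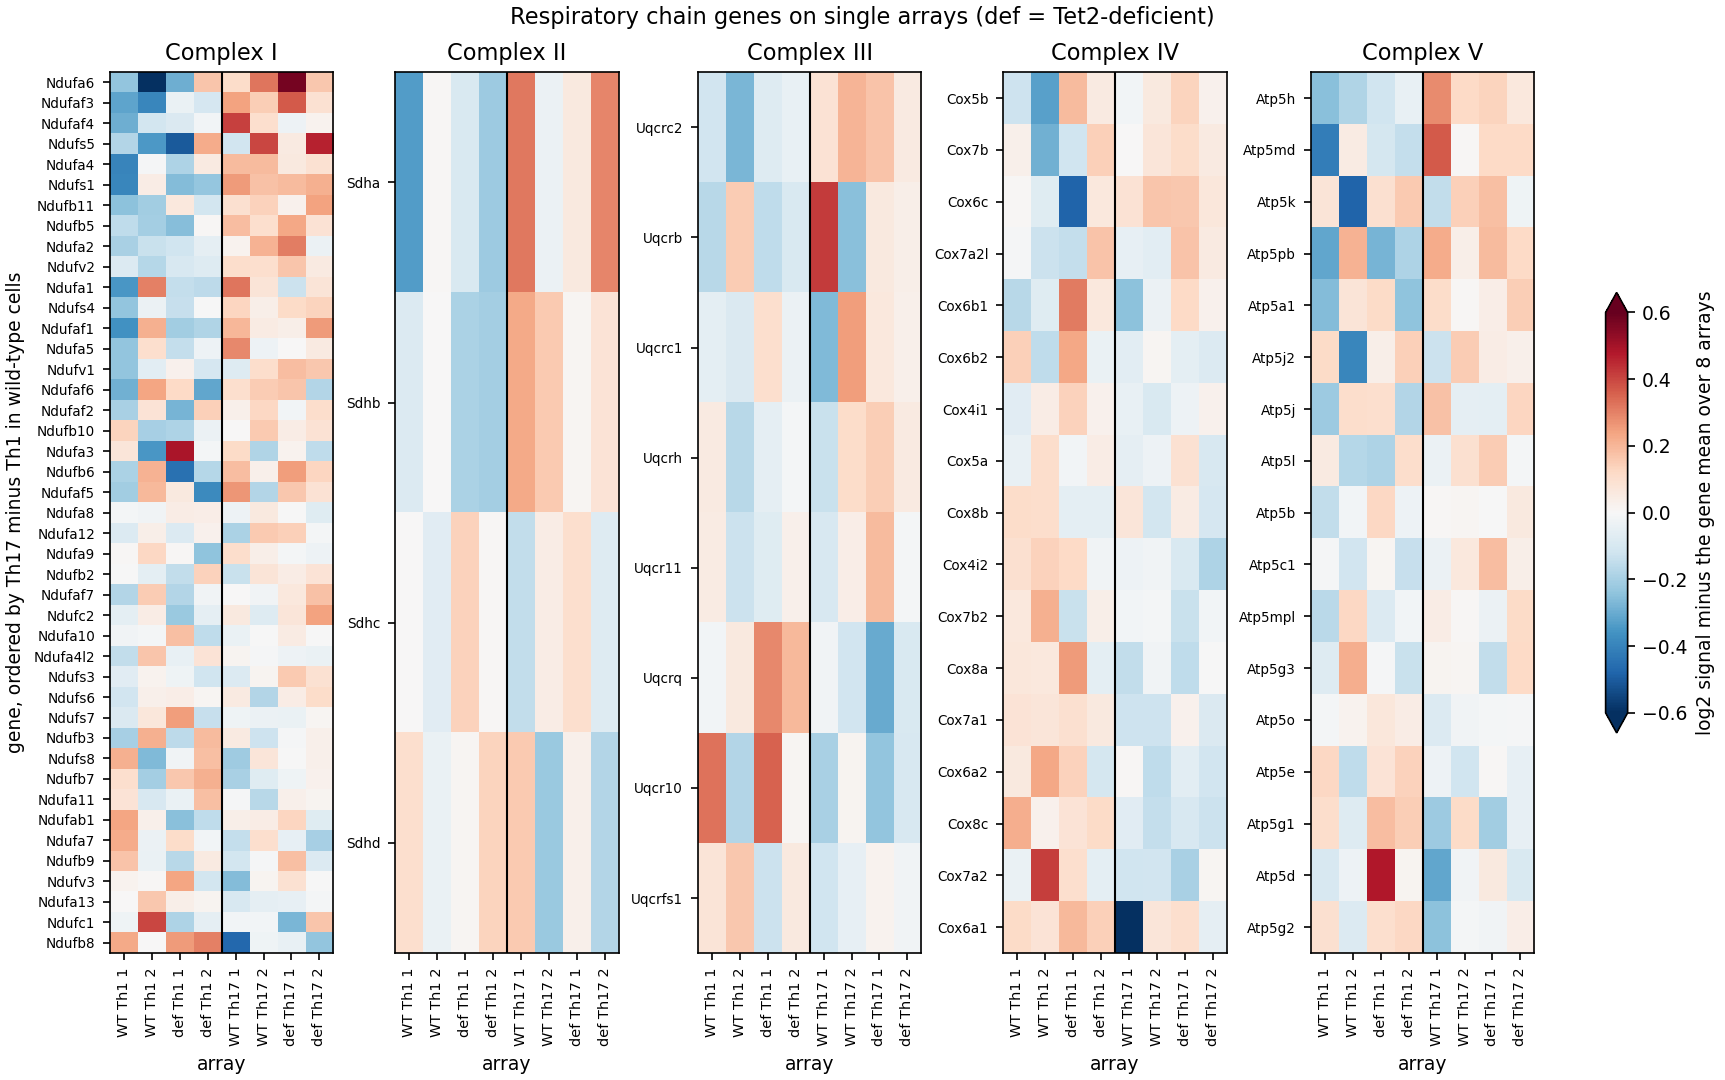
Log2 signal of each respiratory chain gene minus that gene's mean over the 8 arrays (colour), with genes in rows by complex, ordered by the wild-type Th17 minus Th1 difference, and arrays in columns (WT wild-type, def Tet2-deficient, numbers are replicates). Values past the ends of the scale take the end colours; Ndufa6 and Ndufaf3 at the top of complex I are mostly blue on Th1 and red on Th17 arrays, while strong colours lower down sit on single arrays such as wild-type Th17 replicate 1 for Cox6a1.

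The median absolute difference between replicates over the members was 0.18 in wild-type Th1, 0.13 in Tet2-deficient Th1, 0.13 in wild-type Th17 and 0.11 in Tet2-deficient Th17 cells. The largest replicate differences were 0.65 for Ndufa1 in wild-type Th1, 0.72 for Ndufs5 in Tet2-deficient Th1, 0.73 for Cox6a1 in wild-type Th17 and 0.44 for Ndufc1 in Tet2-deficient Th17 cells. Arrays of the subsets did not overlap for 17 members higher and 14 lower in wild-type cells, or 19.1% and 15.7% of the members against 23.8% and 28.4% of all genes (52.2% in either direction). In Tet2-deficient cells they did not overlap for 29 higher and 16 lower, or 32.6% and 18.0% against 25.8% and 31.7% (57.5% in either direction). The wild-type and Tet2-deficient subset differences, which share no array, had the same sign for 73 of 89 members (82.0%, against 74.5% of all genes). Their correlation across the members was 0.67, against 0.81 across all genes, and genes are not independent replicates.

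Loss of Tet2 gave no change in the respiratory chain genes that passed the test. In Th1 cells 0 of 89 members passed (limma, adjusted p under 0.05; 0.00502% of all genes did), and 5 had an unadjusted p under 0.05 (5.62%, against 6.05% of all genes), 4 of them higher (3.20% of all genes) and 1 lower (2.84%). In Th17 cells 0 members passed (0.00% of all genes did) and 0 had an unadjusted p under 0.05 (4.13% of all genes, 2.60% higher and 1.53% lower). For the mean of both subsets 0 passed (0.00%) and 2 had an unadjusted p under 0.05, both higher (5.48% of all genes, 3.48% higher), and for the difference of the effects 0 passed (0.00%) and 1, Ndufaf4, did so (4.48%, with 2.58% above 0 and 1.90% below). The member medians, Tet2-deficient minus wild-type, were 0.03 in each subset beside 0.01 for all genes. The members spanned -0.33 to 0.46 in Th1 and -0.26 to 0.32 in Th17 cells.

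The intervals bound how large a genotype effect could be. In Th1 cells the 95% interval lay wholly within a 1.5-fold change for 79 of 89 members (88.8%, against 92.4% of all genes), and in Th17 cells for 85 of 89 (95.5%, against 94.1%). For the remaining members the data do not bound the effect that tightly. Arrays of the genotypes did not overlap for 20 members higher and 6 lower in Th1 cells, or 22.5% and 6.74% against 19.6% and 13.7% of all genes. In Th17 cells they did not overlap for 13 higher and 7 lower, or 14.6% and 7.87% against 18.8% and 14.1%.

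The genotype differences nearest to the threshold were in Th1 cells. Cox5b was at 9.63 and 9.43 in the wild type and 9.94 and 9.81 in the Tet2-deficient Th1 arrays, with no overlap, a difference of 0.35 ± 0.13 (unadjusted p = 0.017; limma adjusted p = 0.80). In Th17 cells, at 9.74 and 9.81 against 9.89 and 9.78, Cox5b overlapped and differed by 0.06 ± 0.13. The other probe set of Cox5b gave 0.52 in Th1 and 0.11 in Th17 cells. Cox6b1, which holds the dimer of complex IV together, was at 10.44 and 10.53 against 10.92 and 10.67 in Th1 cells and at 10.36 and 10.57 against 10.73 and 10.63 in Th17 cells. It was higher in Tet2-deficient cells without overlap in both, by 0.31 ± 0.13 and 0.21 ± 0.13, and its mean effect of 0.26 ± 0.09 did not pass (unadjusted p = 0.017; limma adjusted p = 0.90). Ndufab1, the acyl carrier protein of complex I, was at 8.70 and 8.49 against 8.21 and 8.31 in Th1 cells, a difference of -0.33 ± 0.13 (limma adjusted p = 0.80), and differed by -0.01 ± 0.13 in Th17 cells. Ndufa6 and Ndufaf3 differed by 0.46 ± 0.21 and 0.29 ± 0.12 in Th1 and by 0.15 ± 0.21 and 0.04 ± 0.12 in Th17 cells. The Th1 value of Ndufa6 was 0.74 and 0.17 without wild-type Th1 replicate 1 and 2, and 0.69 and 0.23 without Tet2-deficient Th1 replicate 1 and 2. The Th1 differences of these genes share their wild-type Th1 arrays with the subset differences above.

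Among the catalytic and core subunits, Ndufs1 differed by -0.07 ± 0.14 in Th1 and -0.01 ± 0.14 in Th17 cells, Sdha by 0.01 ± 0.16 and 0.03 ± 0.16, Uqcrc1 by 0.10 ± 0.15 and 0.06 ± 0.15. Ndufv1 differed by 0.11 ± 0.12 and 0.16 ± 0.12, and Uqcrfs1 by -0.15 ± 0.12 and 0.08 ± 0.12. The regulatory subunit Cox4i1 differed by 0.10 ± 0.12 and 0.07 ± 0.12, and Atp5b by 0.13 ± 0.12 and 0.02 ± 0.12. Sdhb was lower in Tet2-deficient cells of both subsets without overlap, by -0.16 ± 0.11 and -0.14 ± 0.11, and did not pass in either (95% intervals -0.41 to 0.09 and -0.39 to 0.10).

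**Figure D4:**
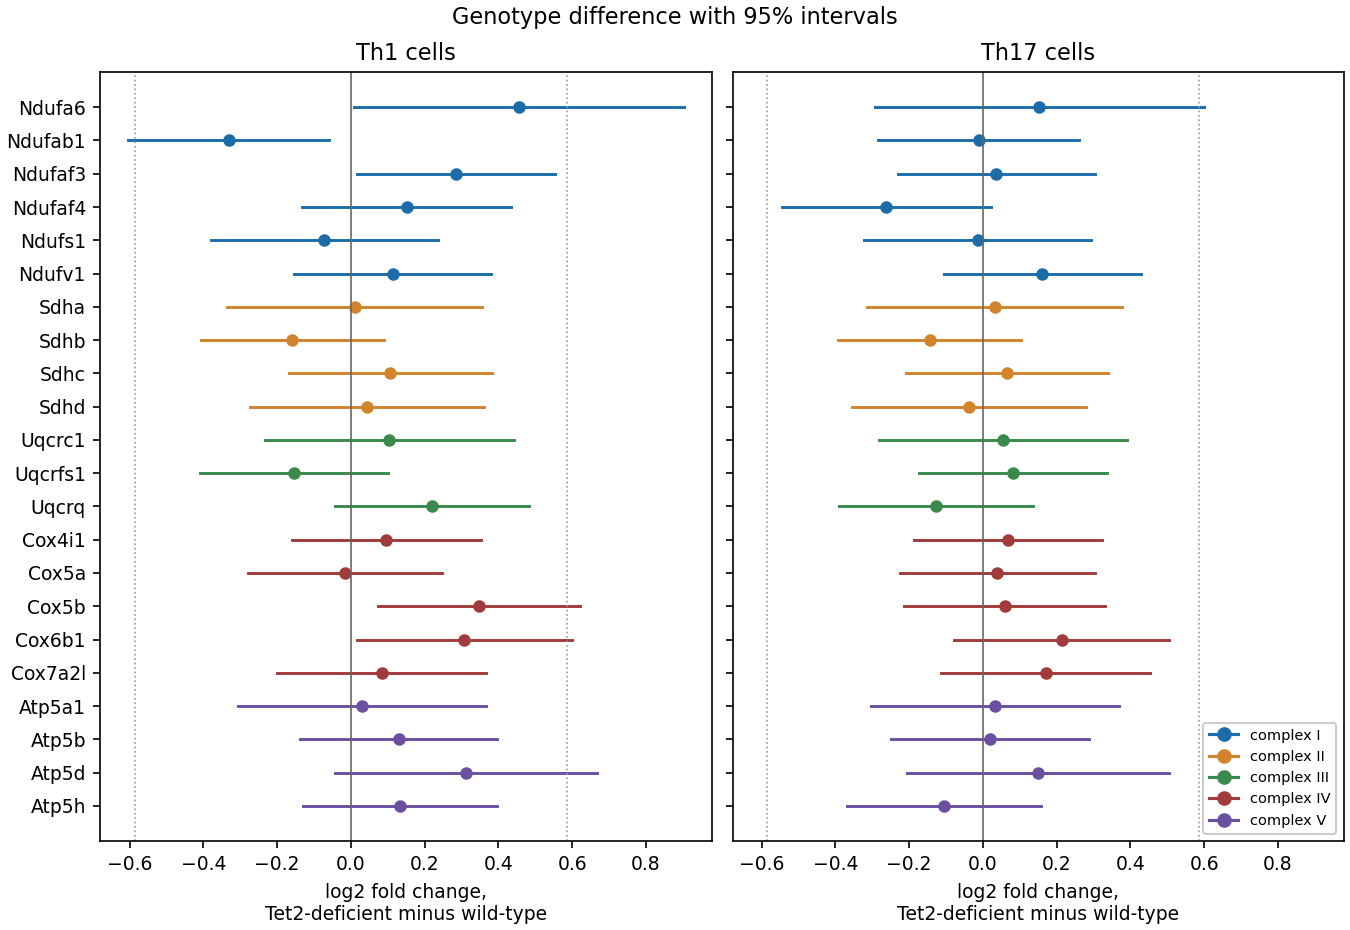
Log2 difference between Tet2-deficient and wild-type cells (horizontal axis) with its 95% interval for 22 named members (vertical axis), in Th1 cells on the left and Th17 cells on the right. Dotted lines mark a 1.5-fold change; the interval that reaches farthest above 0 is that of Ndufa6 in Th1 cells (0.90), and those of Sdha, Uqcrc1, Cox4i1 and Atp5b include 0 in both panels.

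Genes that work beside the complexes were given by lists that name their roles. Among 11 of 12 listed carriers and subunits outside the prefixes, Gpd2, which feeds electrons from glycerol 3-phosphate into coenzyme Q, fell in Th17 cells of both genotypes. It was at 9.25 and 9.41 on the wild-type Th1 arrays, 9.08 and 9.18 on the Tet2-deficient Th1 arrays, 8.47 and 8.43 on the wild-type Th17 arrays, and 8.42 and 8.46 on the Tet2-deficient Th17 arrays, with no overlap between subsets. The differences were -0.88 ± 0.12 (limma adjusted p = 0.00059) and -0.69 ± 0.12 (limma adjusted p = 0.0028). The second was lost with the female-share covariate (-0.69; limma adjusted p = 0.051). In this list the ATP synthase assembly factor Atpaf1 also rose in Tet2-deficient cells (0.46 ± 0.13; limma adjusted p = 0.043). Cytochrome c (Cycs) did not pass, at -0.08 ± 0.13 and -0.21 ± 0.13.

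Of 33 measured assembly factors outside the prefixes, out of 37 listed, 4 rose and 1 fell in wild-type cells, and 4 rose and 0 fell in Tet2-deficient cells. Over all genes 4.97% rose and 3.44% fell in wild-type cells, and 6.32% rose and 3.79% fell in Tet2-deficient cells. Tmem126b, which acts in complex I assembly, rose by 0.41 ± 0.11 in the wild type and 0.66 ± 0.11 in the Tet2-deficient cells. Sdhaf2, which attaches the flavin to Sdha, rose by 0.47 ± 0.12 in both. Uqcc3, a complex III factor, rose by 0.49 ± 0.13 and 0.47 ± 0.13. Uqcc1 rose in wild-type cells (0.49 ± 0.12) and Ecsit, a complex I factor, in Tet2-deficient cells (0.49 ± 0.13). Sco1, which delivers copper to complex IV, fell by 0.75 in wild-type cells (SE 0.12; limma adjusted p = 0.0020). The median of this list was 0.15 in the wild type and 0.17 in the Tet2-deficient cells, beside -0.03 for all genes in each and 0.09 and 0.07 for genes above the median signal. After quantile normalization again it was 0.03 and 0.09, with 2 and 1 members higher in place of 4 and 4, and still 1 lower in wild-type cells.

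The same shares of all genes, 4.97% and 6.32% higher, stand beside the counts that follow. None of 12 measured genes of coenzyme Q synthesis (15 listed) passed in either genotype. Of 17 citric acid cycle genes (18 listed), Suclg2, a subunit of succinyl-CoA ligase, rose in both genotypes (0.48 ± 0.13 and 0.57 ± 0.13; limma adjusted p = 0.035 and 0.012). Of 18 regulators (20 listed), 2 rose in wild-type cells, Gabpb1, a GABP subunit (0.47 ± 0.12), and Polg2, a subunit of the mitochondrial DNA polymerase (0.65 ± 0.15). In Tet2-deficient cells 3 rose, Polg2 (0.74 ± 0.15), Tfam, which packages mitochondrial DNA (0.47 ± 0.12), and Tfb1m (0.50 ± 0.11). Nrf1, whose letters were searched in the promoters, ran from 7.65 to 7.77 on the Th1 arrays and from 7.98 to 8.05 on the Th17 arrays, which did not overlap. Its differences of 0.31 and 0.29 did not pass (limma adjusted p = 0.10 and 0.12). Of 77 mitochondrial ribosome genes, 0 passed in wild-type cells and 3 rose in Tet2-deficient cells (Mrps35, Mrpl42 and Mrpl24). None of the genes in these lists passed in a genotype comparison, and mitochondrially encoded genes were not analysed here. Of the calls in these lists, those of Gpd2 and Sco1 in wild-type cells and of Tmem126b in Tet2-deficient cells held in all 18 settings, the reported one included. The call of Gpd2 in Tet2-deficient cells held in 17 of 18, and that of Tmem126b in wild-type cells in 7 of 18. With the female-share covariate, 4 of the 9 calls in wild-type cells (Gpd2, Sco1, Sdhaf2 and Polg2) and 2 of the 13 in Tet2-deficient cells (Tmem126b and Polg2) passed. In wild-type cells every call in these lists except those of Gpd2 and Sco1 was lost without at least 1 wild-type array. In Tet2-deficient cells every call except those of Gpd2 and Tmem126b was lost without at least 1 Tet2-deficient array.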

How the data were processed

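The 8 arrays were scanned and summarised by the authors as log2 signals per probe set, with RMA, GCOS and Affymetrix Expression Console per the submitters' processing notes. The deposited log2 values were used as they stand. Of 35556 probe sets, 21789 carry a single symbol in the platform annotation of 2016, and the probe set with the highest mean stood for each of 19938 genes. No per-sample column was left unused. Groups were compared with limma 3.58.1 in R 4.3.3 (eBayes with trend, 6 contrasts, 4 residual and 8.32 prior degrees of freedom), with Benjamini-Hochberg adjustment over all 19938 genes and a threshold of 0.05. The script was tested on simulated data. The members, the related gene lists and the alternatives were chosen with earlier results of these data known. Named genes followed a rule: members that passed, or else those with the smallest p up to 5 per direction, the highest, lowest and most changed members of each complex, a list of core subunits and paralogs, and from each related list the genes that passed and up to 4 with the largest wild-type difference. Ndufs5, Ndufa11, Atp5j, Atp5md and Cycs, and the shared probe sets, were named after their values were seen. Alternatives were another scaling, filter, probe-set summary or variance setting, the replicate block, the female RNA share as a covariate, and each array left out. Promoters came from RefSeq on GRCm38.p6, with 16 members unmatched.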

Additional observations from a re-analysis of the deposited data

How the results depend on the processing

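In wild-type cells 3 members were called as reported, against 1 with the replicate number as a replicate block, 1 after quantile normalization again, 1 with the female share as covariate and 1 with a fold of at least 1.5. With single arrays left out the count was 0 (without wild-type Th17 replicate 1) to 3, but the 3 without wild-type Th1 replicate 2 were other genes (Atp5md, Ndufa4 and Ndufs1), and without wild-type Th17 replicate 2 the calls were Cox6a1 and Ndufaf4. In Tet2-deficient cells 1 member was called as reported, Uqcrq, against 0 with the replicate block, 4 with only the 4 arrays of both groups, 3 over genes above the median signal, 2 after quantile normalization again, 2 with centred arrays, 0 with the covariate, 0 with the fold, and 0 to 3 with single arrays left out (without Tet2-deficient Th1 replicate 2 the call was Cox6c, not Uqcrq). With centred arrays both calls (Ndufb6 and Ndufs1) were higher and Uqcrq was lost. The member median there was -0.022 after quantile normalization again, against 0.07 as reported. The causes were not tested. Over all genes, the 1675 called in wild-type cells became 1101 with only the 4 arrays, 911 with the fold, 1029 without wild-type Th1 replicate 1 and 663 without wild-type Th17 replicate 2. The 2015 in Tet2-deficient cells became 726 with the covariate, 1133 with the fold, 933 and 1204 without Tet2-deficient Th1 replicate 1 and 2, and 801 and 1103 without Tet2-deficient Th17 replicate 1 and 2. In genotype comparisons 0 members and at most 5 genes were called in any setting run. In all 19 settings run for each subset comparison, a smaller share of members than of all genes was called. Replicate differences correlated across genes at r of -0.07, -0.19, -0.04 and -0.08 between groups that share a subset or genotype. Between groups that share neither, r was 0.06 and 0.0022. Across the members r ran from -0.49 to 0.38. With 2 arrays per group these values cannot decide whether the numbers pair the arrays. With the wild-type pairing crossed, chosen after seeing the data, 7 members and 2943 genes were called. Of 162 results on named members, 107 kept their sign under every alternative run, and the other 55 passed in no setting.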

Other observations

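Cox7c and Ndufb4 are measured on this array by probe sets that also carry another symbol, so they were not members. The 3 probe sets shared by Cox7c, a small complex IV subunit, and Gm12338 gave Th17 minus Th1 differences of -0.04, -0.01 and -0.02 in the wild type and -0.27, -0.27 and -0.31 in the Tet2-deficient cells. The 2 probe sets shared by Ndufb4 and Ndufb4b gave -0.26 and -0.27 in the wild type and 0.03 and -0.0015 in the Tet2-deficient cells. Of 17 members with more than 1 probe set, 15 had the same sign of the wild-type subset difference in every probe set, and Ndufa11 and Ndufs3 did not.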
